A study of Homo sapiens with 13 samples.

Results

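The promoters of 52 genes that act at the G1/S transition and in DNA replication were examined for chromatin accessibility in G1 and in M-phase. A peak belonged to the set when it overlapped an annotated transcription start site (TSS) of a listed gene, a rule that uses no measured value. The list gave 60 peaks of the 129347 peaks in the deposited table, and every one of the 52 genes had a TSS in at least 1 peak. Of the 16131 peaks at any annotated TSS, called promoter peaks here, these 60 are the members. The peak that holds the principal TSS was taken as the main promoter peak of a gene, which left 8 peaks at other TSSs of the same genes.

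Replication origins are licensed in G1, when the origin recognition complex together with CDC6 and CDT1 loads the MCM2 to MCM7 helicase. At the G1/S transition cyclin E with its kinase relieves the repression of E2F factors by pocket proteins, and E2F then drives the genes for helicase activation, DNA synthesis and nucleotide supply. Many of these promoters are known E2F targets that are held silent in resting cells and are induced after growth factors return.

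The cells were T98G, an established human glioblastoma line that stops dividing when serum is withdrawn. The 3 G1 libraries came from cells starved of serum for 72 h. The 3 M-phase libraries came from cells starved for 48 h, then released for 36 h into serum with nocodazole, a drug that depolymerises microtubules and holds cells in mitosis, and collected by shaking them off the dish. No other genotype or drug distinguished the groups, all are from 1 cell line, and no S-phase or serum-fed G1 library was analysed here. Accessibility was measured by ATAC-seq, in which the Tn5 transposase inserts sequencing adapters into open DNA. Serum release and nocodazole came with M-phase, and their effects and that of the phase cannot be told apart. Sequencing was on the HiSeq for G1 and on both the HiSeq and the NextSeq for each M-phase replicate, so platform and phase cannot be told apart either. In a bulk sample, more cells with an open promoter and more insertions per cell cannot be told apart.

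The deposited values are read counts in peaks of hg19, brought by the authors to the size of the smallest library and called scaled counts here. Their sum over all peaks was 4191845 to 5092426 in the G1 libraries and 5475345 to 6000423 in the M-phase libraries. The underlying reads in peaks, recovered from the steps of the values, numbered 4333935 to 5365024 in G1 and 12470564 to 14202790 in M-phase, so M-phase values carry less counting error. Tests used limma, fitted to log2(scaled count + 8), for the 73121 peaks with enough reads in at least 3 libraries, with Benjamini-Hochberg adjustment over all of them. A peak was called higher or lower at an adjusted p under 0.05, and every log2 change is M-phase over G1 on this scale, so that fold changes of weak peaks are understated. Nothing in the labels says that replicates were separate cultures, so the p-values measure the spread between these libraries. Among markers of the line, the promoters of VIM, CD44 and OLIG2 were accessible, that of SOX2 had a peak too low to test, and GFAP and NES had no TSS peak in the values used here. PTPRC and PECAM1, markers of blood and endothelium, had no such peak, whereas EPCAM, an epithelial marker, had 1 at a TSS other than its principal one.

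At the scaling of the deposited values, accessibility was higher in M-phase than in G1 at most of the replication promoter peaks, but not under every other scaling. Of the 59 members tested, 46 (78%) rose, 0 fell and 13 were not called by limma. At an unadjusted p under 0.05, 1 member was lower (MCM6), and edgeR called 45 higher and 0 lower. Of the 59, 36 were higher and 2 lower with an equal total in peaks, 27 and 2 with an equal median of promoter peaks, and 24 and 5 under a trended loess fit on abundance. Of the other promoter peaks tested, 29.2% were higher and 17.3% lower with the equal total. These shares were 25.5% and 21.2% with the equal median, and 21.2% and 17.2% under the loess fit. At 50 of the 59 peaks every M-phase library lay above every G1 library, and at 1 peak the order was the opposite. The largest rises were at the subunits of chromatin assembly factor 1, CHAF1B and CHAF1A, at UHRF1, which reads hemimethylated DNA behind the fork, and at RRM2, a subunit of ribonucleotide reductase. The helicase genes MCM3 and MCM6 and the gene of the single-strand binding subunit RPA2 did not share in the rise. The 60th member, at POLE2, had a mean scaled count of 5.6 and did not pass the filter.

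These counts stand beside a high background. Among all 15500 promoter peaks tested, 43.2% were called higher and 5.94% lower, against 14.3% higher and 13.1% lower among all tested peaks. Without overlap between the phases, 48.5% of promoter peaks were higher in M-phase and 8.7% were lower. The median log2 change was 0.80 at the members, with quartiles of 0.58 and 1.0, and 0.38 at the other 15441 promoter peaks tested. Because the sums in peaks were larger in M-phase, these medians depend on the scaling. With an equal total in every library the member median was 0.47 and that of the other promoter peaks 0.07, while the median over all tested peaks moved from 0.02 to -0.23. With an equal median of promoter peaks the member median was 0.39 and under the loess fit 0.33, beside -0.01 and 0.06 at the other promoter peaks.

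**Figure D1:**
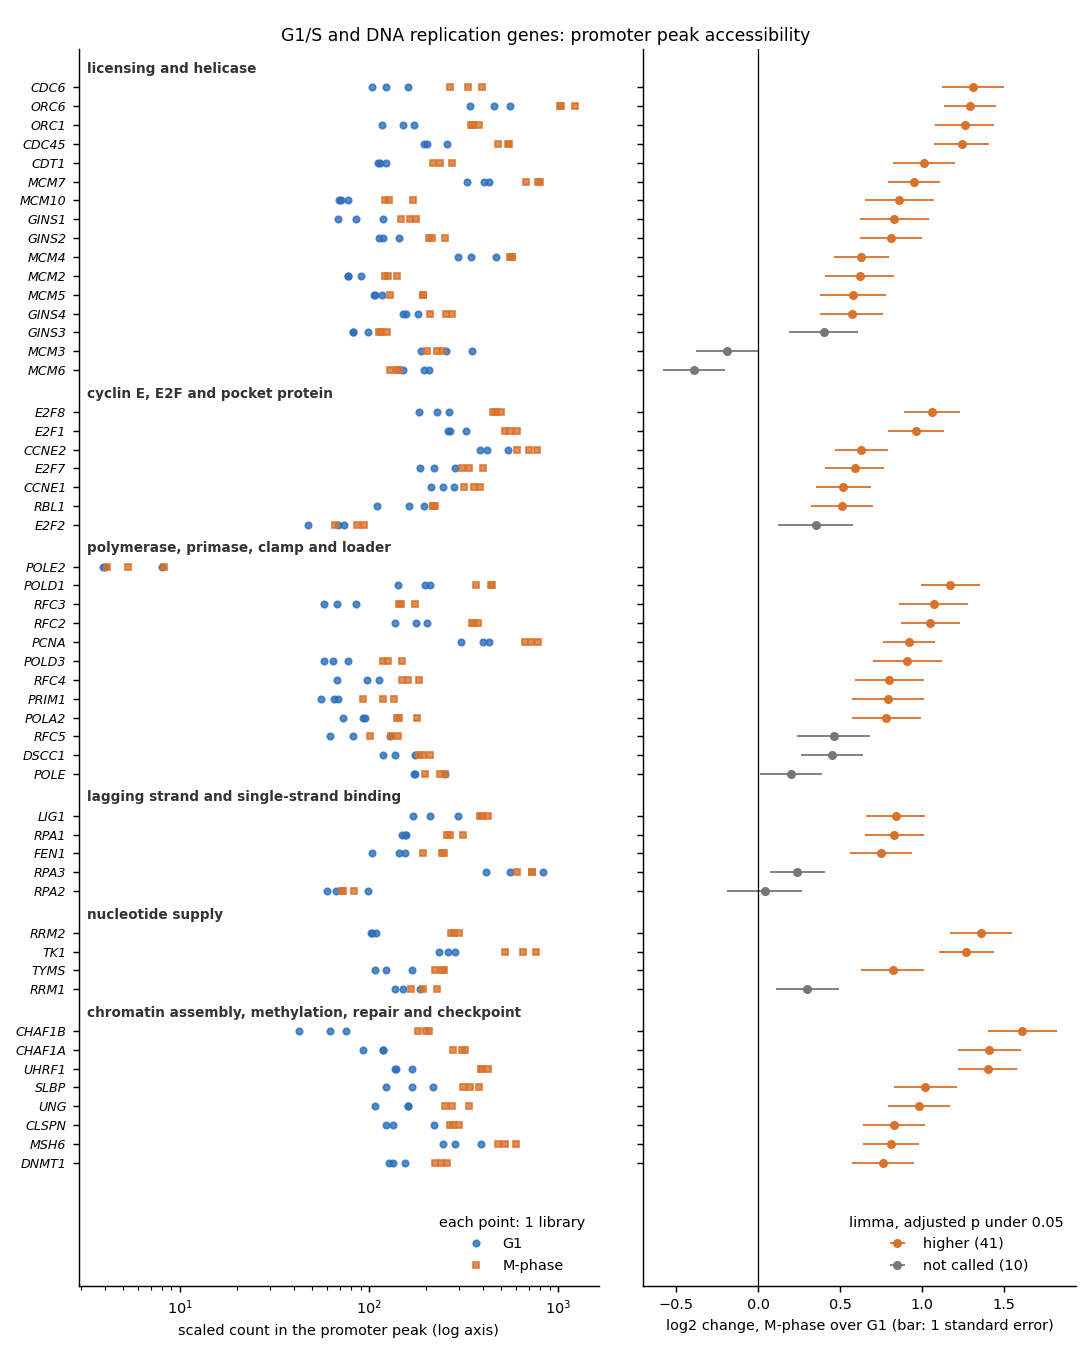
Scaled counts of the main promoter peak of each gene in the 3 G1 (blue circles) and 3 M-phase (orange squares) libraries on a log axis (left), and the log2 change of M-phase over G1 with 1 standard error (right), by role. Orange marks the 41 main peaks called higher and grey the 10 not called, and POLE2 has no change because its peak was not tested.

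The change of a promoter peak grew with its count, so the members were set beside promoter peaks of similar abundance. Among the 5730 other promoter peaks with a mean scaled count of 124 to 300, the middle range of the members, 54.6% were higher and 3.79% lower, with a median log2 change of 0.53. Of the 29 members in that range 24 were higher and 0 lower, and their median was 0.81. The difference between these medians was 0.28, and it is a description, since the genes were chosen with results of these data known.

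The gap between members and other promoters was wider at weaker promoters. Promoter peaks were divided into equal classes by mean scaled count, at 67.7, 150 and 266. Between 67.7 and 150, 11 of 15 members were higher, against 32.2% of the other promoter peaks, and the medians were 0.78 and 0.28. Between 150 and 266, 16 of 21 members were higher against 56.3%, with medians of 0.81 and 0.55. Above 266, 18 of 19 members were higher against 76.6%, with medians of 0.92 and 0.82. The medians of the members and of other promoters were thus closest among the strongest peaks. Only 4 members lay under 67.7, of which 1 was higher, against 7.21% of the others.

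**Figure D2:**
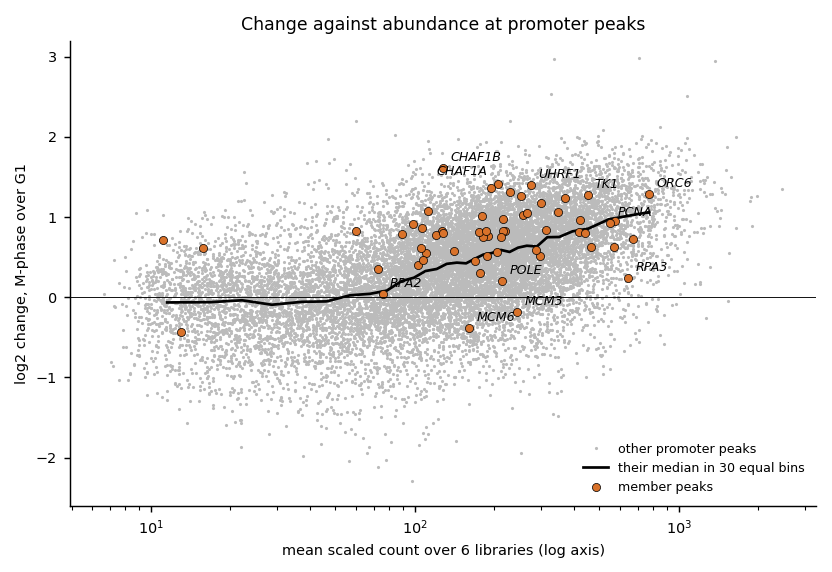
Log2 change of M-phase over G1 against the mean scaled count over the 6 libraries (log axis) for the 59 tested member peaks (orange) and the other 15441 tested promoter peaks (grey), with the median of the latter in equal bins as a black line. Most members lie above the line, PCNA lies close to it, and MCM6, MCM3, RPA3 and POLE are among those below it.

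The difference can also be written for single libraries. In the range of 124 to 300, the median log2(scaled count + 8) of the members minus that of the other promoter peaks was -0.01, -0.18 and -0.15 in G1 replicates 1, 2 and 3. In M-phase replicates 1, 2 and 3 it was 0.11, 0.16 and 0.12. The members were thus at or below promoters of similar mean count in each G1 library and above them in each M-phase library. Because the peaks were matched on their mean over these same libraries, a larger change places the members lower in G1 and higher in M-phase. The opposite positions thus restate the difference in change and add no separate result. A factor applied to a whole library nearly cancels from these differences.

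**Figure D3:**
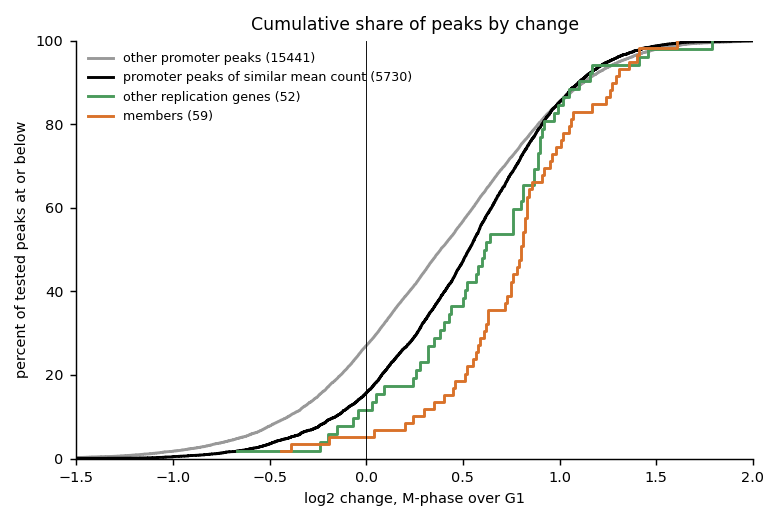
Percent of tested peaks at or below each log2 change of M-phase over G1, for the 59 members (orange), 52 promoter peaks of other replication genes (green), 5730 other promoter peaks with a mean scaled count of 124 to 300 (black) and all 15441 other promoter peaks (grey). The member curve lies to the right of the others over most of its range, with medians of 0.80, 0.62, 0.53 and 0.38 in that order.

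The sequences upstream of the main TSS are shown for the promoters at the extremes of the change, and for E2F1, a known target of its own protein family. Each line gives the 200 bases before the TSS, 5′ to 3′ on the strand of the gene, from the GRCh37 assembly, with matches to the E2F consensus on either strand in capitals. The positions are chr21:37757490-37757689 on the plus strand for CHAF1B, chr19:4402437-4402636 on the plus strand for CHAF1A, and chr19:4909313-4909512 on the plus strand for UHRF1. They are chr20:32274192-32274391 on the minus strand for E2F1, chr6:52149541-52149740 on the minus strand for MCM3, and chr2:136634014-136634213 on the minus strand for MCM6.
CHAF1B: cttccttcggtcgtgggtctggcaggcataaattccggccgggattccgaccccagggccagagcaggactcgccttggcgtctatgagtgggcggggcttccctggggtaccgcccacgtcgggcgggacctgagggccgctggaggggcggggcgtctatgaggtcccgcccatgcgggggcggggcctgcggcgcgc
CHAF1A: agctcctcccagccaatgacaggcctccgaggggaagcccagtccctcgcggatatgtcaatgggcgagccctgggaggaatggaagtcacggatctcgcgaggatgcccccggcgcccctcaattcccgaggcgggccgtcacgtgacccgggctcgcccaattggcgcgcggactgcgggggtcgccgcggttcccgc
UHRF1: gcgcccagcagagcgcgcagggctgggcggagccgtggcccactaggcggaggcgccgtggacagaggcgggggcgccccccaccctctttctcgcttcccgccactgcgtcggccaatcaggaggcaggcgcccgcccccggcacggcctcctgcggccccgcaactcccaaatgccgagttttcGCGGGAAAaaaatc
E2F1: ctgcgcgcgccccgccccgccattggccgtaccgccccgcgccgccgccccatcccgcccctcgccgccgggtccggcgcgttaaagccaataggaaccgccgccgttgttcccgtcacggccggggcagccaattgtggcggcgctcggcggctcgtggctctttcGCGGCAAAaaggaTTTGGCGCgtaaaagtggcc
MCM3: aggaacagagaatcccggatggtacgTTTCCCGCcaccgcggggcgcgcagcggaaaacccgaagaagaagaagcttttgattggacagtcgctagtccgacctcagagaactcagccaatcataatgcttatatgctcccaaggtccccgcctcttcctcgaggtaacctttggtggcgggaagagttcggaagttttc
MCM6: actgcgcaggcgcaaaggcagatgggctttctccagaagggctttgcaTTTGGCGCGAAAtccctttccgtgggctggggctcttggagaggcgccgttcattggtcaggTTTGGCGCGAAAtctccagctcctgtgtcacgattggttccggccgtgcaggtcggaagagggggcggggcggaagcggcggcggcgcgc
The E2F consensus was searched as TTTCCCGC, TTTCGCGC, TTTGCCGC and TTTGGCGC on both strands. CHAF1B and CHAF1A, with the largest rises, held no match in these 200 bases, UHRF1 held 1 and E2F1 held 2. MCM3, not called in either direction, held 1. MCM6, with the lowest change of the main peaks, held 4, which form 2 pairs because overlapping matches on opposite strands count separately. CDC6 and RPA2, planned with these promoters but not shown, held 0 matches in their 200 bases, at log2 changes of 1.31 and 0.04. The cut at the TSS matters for CDC6 and MCM3. From 250 bases before to 50 after the TSS, CDC6 held 1 match, which begins 8 bases after the TSS, and RPA2 held 0. MCM3 held 2 in that window, because another match begins before the TSS and runs past it. The counts of the other promoters shown were the same in that window.

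Over windows of 300 bases, from 250 before to 50 after the principal TSS, 27 of the 52 genes (51.9%, 95% Wilson interval 38.7 to 64.9) held a match to the E2F consensus. Among 12240 other protein-coding genes with a tested promoter peak the share was 5.56%, and among 49 other replication genes, listed for comparison, it was 32.7%. Of the 37 matches in member windows, 21 began within the 100 bases before the TSS, and 7 windows held 2 or more. The CCAAT box, searched as CCAAT, was in 59.6% of member windows and 36.2% of those of other genes. The CHR element TTTGAA was in 3.85% and 8.46%, the GC box GGGCGG in 69.2% and 77%, and the ETS site CCGGAAG in 15.4% and 20.6%. Intervals cover counting error only.

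Presence of the consensus did not go with a larger change inside the set. The median log2 change of the main promoter peaks was 0.82 for the 26 tested genes with a match and 0.83 for the 25 without, and 21 and 20 of them were called higher. Among other protein-coding genes it was 0.59 with a match and 0.50 without. Base composition hardly set the members apart, with a median GC content of 67.5% in their windows and 67% in the other windows. Their median CpG ratio, observed over expected, was 0.95 against 0.87, and the median width was 1313 bp for their main peaks and 1179 bp for all tested promoter peaks.

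**Figure D4:**
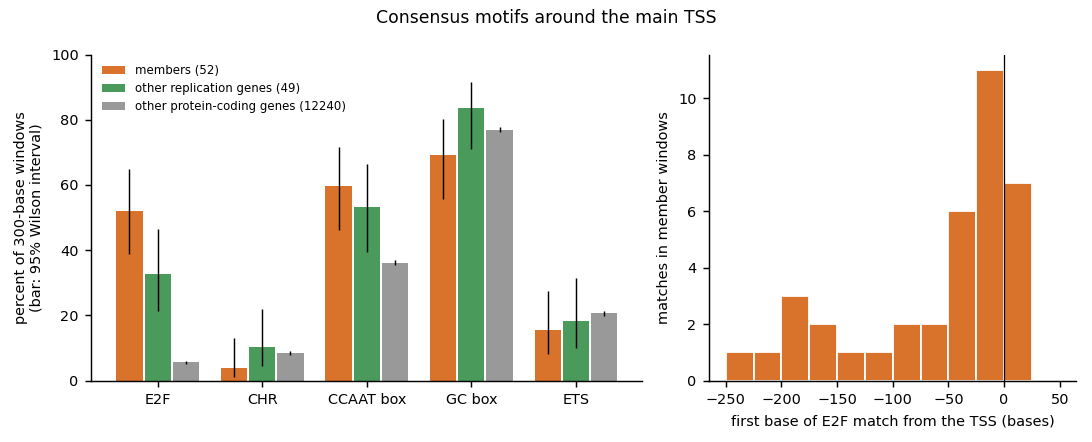
Percent of 300-base windows around the principal TSS that hold each consensus, with 95% Wilson intervals, for 52 member genes (orange), 49 other replication genes (green) and 12240 other protein-coding genes (grey) (left), and the distance of the E2F matches in member windows from the TSS (right). E2F matches were in 51.9%, 32.7% and 5.56% of windows and gathered near the TSS.

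The first role group holds the genes of origin licensing and the helicase. Of its 16 main promoter peaks 13 rose and 3 were not called, with a median log2 change of 0.82. The group's median mean scaled count lay between 150 and 266, where 56.3% of other promoter peaks were higher, with a median change of 0.55. CDC6, the loader of the helicase, had a peak at chr17:38443614-38444891 with scaled counts of 161.1, 103.1 and 123 in G1 and 266.1, 334.2 and 392.6 in M-phase. Its log2 change was 1.31 (SE 0.19, limma adjusted p = 3.19e-08). ORC6, a subunit of the origin recognition complex, had the highest mean scaled count of all members, with 458.3, 339.8 and 556 in G1 and 1037.7, 1224.2 and 1020.6 in M-phase. The M-phase libraries were all above the G1 libraries at both genes, and the change at ORC6 was 1.29 (SE 0.16, limma adjusted p = 1.83e-10). The ORC6 peak, chr16:46722398-46724193, also holds the TSS of VPS35.

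ORC1, the largest subunit of the origin recognition complex, had 172, 151.6 and 117 in G1 and 353.5, 381.5 and 345 in M-phase. This is a log2 change of 1.26 (SE 0.18, limma adjusted p = 3.07e-08), at a peak shared with PRPF38A. CDC45, which joins the MCM ring to make the active helicase, had 193.9, 202.3 and 257 in G1 and 548.7, 538.5 and 477.8 in M-phase. Its change was 1.24 (SE 0.17, limma adjusted p = 8.23e-09), at a peak shared with UFD1. At CDC6, ORC6, ORC1 and CDC45 the M-phase mean was 2.56, 2.42, 2.45 and 2.40 times that of G1. CDT1, the partner of CDC6 in loading, rose by a log2 change of 1.01, and MCM10, which acts in helicase activation, by 0.86. Among the GINS subunits of the active helicase GINS1, GINS2 and GINS4 rose by 0.83, 0.81 and 0.57, and GINS3 had 0.40 and was not called. GINS4 was not called without G1 replicate 1, M-phase replicate 2 or M-phase replicate 3. With an equal median of promoter peaks GINS1, GINS2, GINS4 and MCM10 lost their calls, at 0.42, 0.39, 0.15 and 0.45, and GINS4 also did so with an equal total and GINS2 and GINS4 under the loess fit, at 0.40 and 0.09.

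The 6 subunits of the MCM ring did not move together. MCM7, MCM4, MCM2 and MCM5 rose, with log2 changes of 0.95, 0.63, 0.62 and 0.58. MCM4 lost its call without G1 replicate 1, MCM2 without G1 replicate 1 or M-phase replicate 1 or 2, and MCM5 without G1 replicate 1 or M-phase replicate 2 or 3. MCM2, MCM4 and MCM5 also lost their calls with an equal total, at 0.29, 0.28 and 0.25, and with an equal median of promoter peaks, at 0.21, 0.19 and 0.16. Under the loess fit none of the 4 was called, with 0.42 at MCM2, 0.26 at MCM5, 0.03 at MCM7 and a reversed -0.22 at MCM4. The peaks of MCM2, MCM4 and MCM7 also hold the TSSs of TPRA1, PRKDC and AP4M1. MCM3 had scaled counts of 253.5, 187.5 and 350 in G1 and 228.2, 241.5 and 202.6 in M-phase, a log2 change of -0.19 (SE 0.19, limma adjusted p = 0.507). The libraries of the phases overlapped at MCM3, and without G1 replicate 3 its change was 0.03. MCM6 had 151.1, 193.8 and 207 in G1 and 142.9, 140.5 and 129 in M-phase, a log2 change of -0.39 (SE 0.19, limma adjusted p = 0.131). At MCM6 every G1 library was above every M-phase library, the single member peak with that order. MCM6 passed the threshold as lower under TMM scaling, with a change of -0.44, and both genes did so with an equal total in peaks, an equal median of promoter peaks and the loess fit.

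To take the scaling out, the value of each gene in a library was divided by the mean of MCM2, MCM4, MCM5 and MCM7 in that library, a comparison chosen after the values were seen. The log2 ratio of MCM6 was -0.23, 0.12 and -0.06 in the G1 libraries and -0.95, -1.2 and -1.27 in the M-phase libraries. The ratio of MCM3 was 0.48, 0.08 and 0.67 in G1 and -0.3, -0.45 and -0.65 in M-phase. Both ratios were lower in every M-phase library than in any G1 library, by -1.08 for MCM6 and -0.88 for MCM3. For each ratio a two-sided exact permutation test over the 6 libraries gave p = 0.1, below which 3 libraries against 3 cannot go. MCM3 and MCM6 were picked as the subunits that did not rise, and set against those that did, in these same libraries. The separation was largely set by that choice, so the p-value decides nothing. A ratio shows unequal change and does not tell which of the genes changed, and of the 4 genes it is set against only MCM5 is alone at its peak.

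The cyclin E, E2F and pocket protein genes set the timing of S-phase entry. Of their 7 main promoter peaks 6 rose, with a median log2 change of 0.59. The median mean scaled count of the group lay above 266, where 76.6% of other promoter peaks were higher. Their median log2 change was 0.82, above that of the group. E2F8, an atypical repressor of the family, had 183.9, 227.3 and 264 in G1 and 465.9, 452.4 and 497.5 in M-phase, a change of 1.06 (SE 0.17, limma adjusted p = 6.77e-07). E2F1, an activator, had 261.5, 267.2 and 324 in G1 and 554.9, 522 and 602.4 in M-phase, a change of 0.96 (SE 0.17, limma adjusted p = 2.22e-06). Both promoters were higher in each M-phase library than in any G1 library, but E2F1 lost its call under the loess fit, at 0.18. CCNE2, which encodes cyclin E2, had 418.5, 384.4 and 540 in G1 and 604.3, 701.3 and 772.3 in M-phase, a change of 0.63 (SE 0.16, limma adjusted p = 0.00134). E2F7, the partner of E2F8, had 219.7, 185.2 and 285 in G1 and 307.7, 337.5 and 397.5 in M-phase, a change of 0.59 (SE 0.18, limma adjusted p = 0.0075). Neither CCNE2 nor E2F7 showed an overlap between the phases, but under the loess fit both directions turned. CCNE2 was then called lower, with a change of -0.30 (limma adjusted p = 0.0168), and E2F7 had -0.04. With an equal median of promoter peaks CCNE2 and E2F7 were not called, at 0.20 and 0.17, and E2F7 was also not called with an equal total or without M-phase replicate 3.

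CCNE1, which encodes cyclin E1, and RBL1, which encodes the pocket protein p107, rose by log2 changes of 0.52 and 0.51, and RBL1 was no longer called without the filter or with edgeR. The call of CCNE1 was lost without G1 replicate 1 or 2 or M-phase replicate 2 or 3, and that of RBL1 without any 1 replicate other than G1 replicate 3. Neither was called with an equal total, at 0.17 for both, or with an equal median of promoter peaks, at 0.09 for both, and under the loess fit CCNE1 turned to -0.13 and RBL1 had 0.06. E2F2, another activator, had the weakest peak of the group, with 73.6, 47.7 and 68 in G1 and 86.1, 65.9 and 93.8 in M-phase. Its libraries overlapped, and the change of 0.35 (SE 0.23, limma adjusted p = 0.28) was not called.

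Among the polymerase, primase, clamp and loader genes 8 of the 11 tested main promoter peaks rose, with a median log2 change of 0.80. Their median mean scaled count lay between 67.7 and 150, where 32.2% of other promoter peaks were higher, with a median change of 0.28. POLD1, the catalytic subunit of polymerase delta, had 209.8, 142.2 and 198 in G1 and 368.3, 446.2 and 441.2 in M-phase, a change of 1.17 (SE 0.18, limma adjusted p = 1.29e-07). RFC3, a subunit of the clamp loader, had 57.7, 67.2 and 85 in G1 and 147.5, 174.3 and 142.9 in M-phase, a change of 1.07 (SE 0.21, limma adjusted p = 2.94e-05). The counts at RFC3 were low for the set, yet the phases did not overlap at either gene. RFC2, another loader subunit, had 176, 136.7 and 203 in G1 and 349.7, 356.4 and 373.9 in M-phase, a change of 1.05 (SE 0.18, limma adjusted p = 2.20e-06). A second RFC2 peak at another TSS had a mean scaled count of 13 and a change of -0.44 (SE 0.29, limma adjusted p = 0.279), so only the main peak was called.

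PCNA, the sliding clamp that tethers the polymerases, had 401.6, 307 and 429 in G1 and 663.7, 781.2 and 717 in M-phase, a log2 change of 0.92 (SE 0.16, limma adjusted p = 2.86e-06). The phases did not overlap, and 81.7% of all tested promoter peaks had a smaller change than PCNA. Under the loess fit the change at PCNA was 0.02 and its call was lost. RFC4, PRIM1, which encodes the catalytic primase subunit, POLA2, which encodes the accessory subunit of polymerase alpha, and POLD3 rose by 0.80, 0.79, 0.78 and 0.91. With an equal median of promoter peaks RFC4, PRIM1 and POLA2 were not called, at 0.39, 0.39 and 0.37, and PRIM1 was also not called with an equal total. RFC5 and DSCC1, a subunit of an alternative loader, had 0.46 and 0.45 and were not called, but passed the threshold without G1 replicate 3, at 0.72 and 0.59. POLE, the catalytic subunit of the leading strand polymerase, had 174, 173.4 and 253 in G1 and 196.1, 236.9 and 252.1 in M-phase. The libraries overlapped at POLE, and its change was 0.20 (SE 0.19, limma adjusted p = 0.479), which turned negative under the loess fit and both equal scalings, where it was not called. The catalytic subunits of the leading strand polymerase and of polymerase delta thus stood at the lower and upper end of the group, and their difference was not tested.

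In the group of lagging strand and single-strand binding genes 3 of 5 rose, with a median log2 change of 0.75. At mean scaled counts of 150 to 266, where the group's median lay, 56.3% of other promoter peaks were higher, with a median change of 0.55. LIG1, the ligase that joins Okazaki fragments, had 208.8, 171.1 and 295 in G1 and 383.9, 423.6 and 393.6 in M-phase, a change of 0.84 (SE 0.18, limma adjusted p = 0.000106). RPA1, the large subunit of the single-strand binding complex, had 155.1, 148.4 and 156 in G1 and 266.5, 314 and 257.4 in M-phase, a change of 0.83 (SE 0.18, limma adjusted p = 0.000216). All M-phase libraries exceeded all G1 libraries at LIG1 and RPA1, whose peaks also hold the TSSs of ZSWIM9 and SMYD4. FEN1, the flap endonuclease, had 154.1, 103.1 and 143 in G1 and 192.8, 243.1 and 248.3 in M-phase, a change of 0.75 (SE 0.19, limma adjusted p = 0.00156). RPA2 had 59.7, 66.4 and 99 in G1 and 72.5, 83.6 and 72.2 in M-phase, a change of 0.04 (SE 0.23, limma adjusted p = 0.914). The M-phase values of RPA2 lay inside the G1 range. RPA3, with 0.24, was not called, and its value comes from a peak at another of its TSSs that it shares with UMAD1, because its principal TSS lies in no peak. The direction at RPA3 rests on the setting. Its change was 0.50 and called higher without G1 replicate 3, -0.74 and called lower under the loess fit (limma adjusted p = 1.18e-08), and -0.11 and -0.19, not called, with an equal total and an equal median of promoter peaks. LIG1, RPA1 and FEN1 lost their calls under the loess fit, at 0.19, 0.33 and 0.32, and FEN1 also with an equal median of promoter peaks, at 0.33.

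Among the 4 genes of nucleotide supply 3 rose, with a median log2 change of 1.05. Other promoter peaks with mean scaled counts of 150 to 266, around the group's median, were higher in 56.3%, with a median change of 0.55. RRM2 had 102.4, 103.9 and 109 in G1 and 297, 270.7 and 279.1 in M-phase, a change of 1.36 (SE 0.19, limma adjusted p = 1.02e-08). TK1, which encodes thymidine kinase, had 260.5, 234.4 and 284 in G1 and 523.2, 646.5 and 758.3 in M-phase, a change of 1.27 (SE 0.17, limma adjusted p = 2.04e-09). The M-phase mean was 2.69 times that of G1 at RRM2 and 2.48 times at TK1, and the TK1 peak also holds the TSS of AFMID. TYMS, thymidylate synthase, had 123.3, 107.8 and 168 in G1 and 222.9, 243.1 and 248.3 in M-phase, a change of 0.82 (SE 0.19, limma adjusted p = 0.000432). RRM1 encodes the large subunit that pairs with RRM2, and it had 150.1, 137.5 and 185 in G1 and 167.3, 191.6 and 228.1 in M-phase. Its libraries overlapped, and the change of 0.30 (SE 0.19, limma adjusted p = 0.264) was not called and turned negative under the loess fit and both equal scalings. TYMS lost its call under the loess fit, at 0.39.

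All 8 genes of chromatin assembly, methylation, repair and the checkpoint rose, with a median log2 change of 1.0. Between mean scaled counts of 150 and 266, where the group's median lay, 56.3% of other promoter peaks were higher, with a median change of 0.55. CHAF1B, at chr21:37757505-37758270, had 42.7, 75.8 and 62 in G1 and 182.1, 207.7 and 198.7 in M-phase, a change of 1.61 (SE 0.21, limma adjusted p = 1.62e-09). CHAF1A, the large subunit of the same histone chaperone, at chr19:4402298-4403063, had 118.3, 92.2 and 118 in G1 and 278.1, 320.6 and 308 in M-phase. Its change was 1.41 (SE 0.19, limma adjusted p = 3.65e-09). The phases were far apart at both chaperone genes, and the ratio of the phase means was 3.26 at CHAF1B and 2.76 at CHAF1A. UHRF1, at chr19:4909323-4911094, had 137.2, 168 and 138 in G1 and 388.5, 392.3 and 426.8 in M-phase, a change of 1.40 (SE 0.18, limma adjusted p = 7.19e-10).

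SLBP, which binds the stem-loop of histone mRNAs, had 169, 123.4 and 218 in G1 and 314.7, 341.6 and 381.1 in M-phase. Its log2 change was 1.02 (SE 0.19, limma adjusted p = 6.80e-06), at a peak shared with TACC3. DNMT1, the maintenance methyltransferase that UHRF1 recruits, had the smallest change of the group, with 154.1, 133.6 and 128 in G1 and 240.6, 257.9 and 221.8 in M-phase. The phases were still apart at DNMT1, with a change of 0.76 (SE 0.19, limma adjusted p = 0.000937). UNG, the uracil glycosylase, CLSPN, which encodes the checkpoint adaptor claspin, and MSH6, a mismatch repair gene, rose by 0.98, 0.83 and 0.81. Under the loess fit DNMT1, CLSPN and MSH6 lost their calls, at 0.31, 0.33 and 0.02, and DNMT1 also with an equal median of promoter peaks, at 0.34.

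Many of these genes share a promoter with a neighbour, and the signal cannot be assigned to either. The main peak of 16 members also held a TSS of another protein-coding gene, and 14 of these rose, with a median log2 change of 0.81. Their median mean scaled count lay above 266, where 76.6% of other promoter peaks were higher, with a similar median change of 0.82. Of the 35 tested members alone at their peak 27 rose, with a median of 0.82. The median count of these lay between 150 and 266, where 56.3% of other promoter peaks were higher, with a median change of 0.55. Of the 8 peaks at other TSSs of member genes 5 rose. Their median count lay between 67.7 and 150, where 32.2% of other promoter peaks were higher. The peaks at other TSSs of PCNA, GINS1, POLD3 and DNMT1 also hold TSSs of CDS2, ABHD12, LIPT2 and S1PR2. Neighbours not named above share the main peaks of CCNE2 (NDUFAF6), FEN1 (FADS2 and TMEM258), POLE (PXMP2) and PRIM1 (HSD17B6). POLA2 shares its main peak with a protein-coding gene that has no symbol.

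Accessible sites inside the genes moved in both directions. Inside the member genes, away from any TSS, lay 105 peaks, of which 41 could be tested. Of these 4 rose and 6 fell, with a median log2 change of 0.05. Among all 25710 such peaks tested in protein-coding genes 7.12% were higher and 15.1% lower, with a median of -0.05. The largest rise was at UHRF1, at chr19:4911600-4912336, where scaled counts were 59.7, 60.2 and 62 in G1 and 171.8, 175.1 and 176.6 in M-phase. This peak changed by 1.41 (SE 0.21, limma adjusted p = 4.79e-08), about as much as the UHRF1 promoter nearby. POLA2 had 2 rising internal peaks and RFC4 had 1. Peaks in the annotated spans of CDC45, E2F7, CHAF1B, CDC6, GINS3 and MSH6 fell, by log2 changes of -0.93, -0.92, -0.90, -0.90, -0.77 and -0.68. The MSH6 peak, chr2:47979337-47980256, lies upstream of the principal TSS, in a span that reaches to a more distant TSS. The share that fell was close to that of all such peaks. The split moved with the scaling, to 1 higher and 11 lower with an equal total or an equal median of promoter peaks and to 7 higher and 5 lower under the loess fit.

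The pathway was also followed in 49 other genes of replication and its control, which had a TSS in 52 peaks, all of them tested. Of these peaks 33 (63.5%) rose and 1 fell, with a median log2 change of 0.62, beside 43.2% higher and 5.94% lower among all promoter peaks. Their median mean scaled count lay between 150 and 266, where 56.3% of other promoter peaks were higher, with a median change of 0.55. With an equal total 24 were higher and 5 lower, with an equal median of promoter peaks 22 and 7, and under the loess fit 14 and 9. Among promoter peaks with mean scaled counts of 124 to 300, members left out, 33.9% were higher and 13.6% lower with an equal total. These shares were 28.4% and 17.7% with an equal median of promoter peaks, and 24% and 19.4% under the loess fit. The largest rises in this list were at WDHD1, a factor of the replisome, with a change of 1.79 (SE 0.22, limma adjusted p = 3.58e-10), and at ASF1B, a histone chaperone, with 1.46 (SE 0.16, limma adjusted p = 7.29e-12). WDHD1 had 28.8, 44.5 and 73 in G1 and 157, 192.4 and 189.1 in M-phase, a larger change than at any member, at a peak that also holds the TSS of SOCS4. The single fall at the deposited scaling was at ORC5, a further subunit of the origin recognition complex, with 172, 166.4 and 260 in G1 and 94.3, 146.7 and 123.2 in M-phase. Its change was -0.67 (SE 0.20, limma adjusted p = 0.00681), whereas ORC2 and ORC4 rose by 0.60 and 0.44 and ORC3, with 0.28, was not called. The fall at ORC5 was not called without G1 replicate 3 or without M-phase replicate 1. The difference between the lists was not tested.

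How many members rose depended on the scaling between libraries. TMM scaling gave 46 higher and 1 lower, an equal total in peaks 36 and 2, an equal median of promoter peaks 27 and 2, and a trended loess fit 24 and 5. The share of other promoter peaks of similar mean count that were higher fell alongside, from 54.6% to 24% under the loess fit. It was 33.9% with an equal total and 28.4% with an equal median of promoter peaks. The share that was lower rose from 3.79% to 13.6%, 17.7% and 19.4% with the equal total, the equal median and the loess fit. Under these scalings the median of the members stayed above that of the similar promoter peaks, at 0.75 and 0.48, 0.47 and 0.19, 0.39 and 0.11, and 0.33 and 0.07. TMM and both equal scalings apply 1 factor to each library, which moves both medians by nearly the same amount. The loess fit shifts values by abundance, on which the similar promoter peaks were chosen, so it too can move both medians alike. That the gap stayed is therefore no separate test of it. Of the 41 main promoter peaks called, 17 were called under every alternative, a count given without a share of other promoter peaks beside it. These were CHAF1A, CHAF1B, SLBP, UHRF1, UNG, E2F8, CDC45, CDC6, CDT1, ORC1, ORC6, RRM2, TK1, POLD1, POLD3, RFC2 and RFC3.

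**Figure D5:**
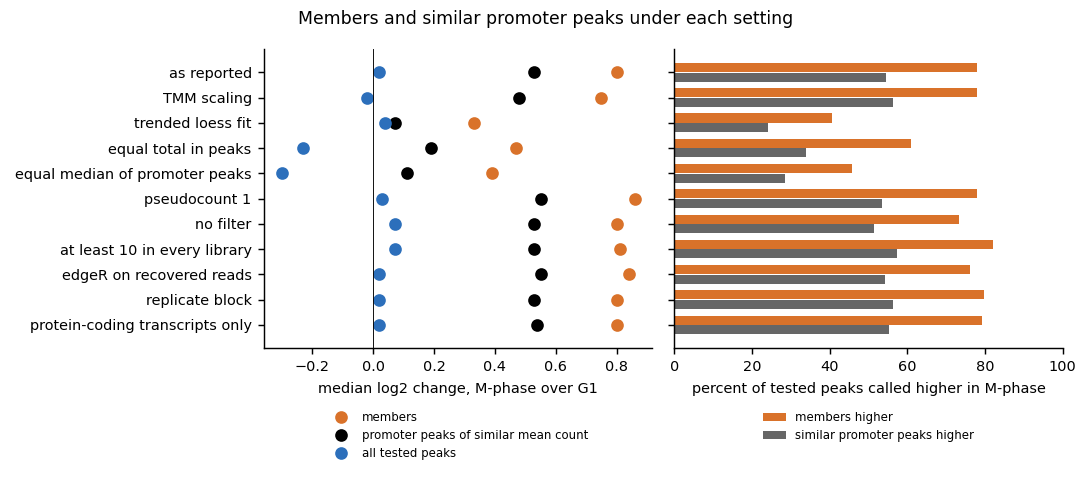
Median log2 change of M-phase over G1 for the members (orange), other promoter peaks of similar mean count (black) and all tested peaks (blue) under each setting (left), and the percent of members (orange) and similar promoter peaks (grey) called higher (right). The members had the higher median and share under every setting shown, while both fell together under the loess fit and the scalings to an equal total or an equal promoter median.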

How the data were processed

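ATAC-seq values of 3 G1 and 3 M-phase libraries of T98G cells were used, and the chromatin fraction, input and proteomics data were not analysed here. According to the methods of the study, adapters were removed with cutadapt, reads were mapped to hg19 with Rbowtie in QuasR, mitochondrial reads were removed with samtools, and broad peaks were called with macs2 on merged replicates, keeping duplicates. Mapping allowed up to a few locations per read, so near-identical copies can share reads. Tool versions, and whether read ends were shifted for Tn5, are not given in the sources used here. The deposited signal values are read counts per peak, which the authors brought to the size of the smallest library and rounded. For G1 replicate 3 the deposited values are whole counts, the scale of 1 read being 1. The deposited table also holds a log2 change and its SD, the authors' own comparison, which were not used. The authors' table gives 1 column per M-phase replicate, and how the HiSeq and NextSeq runs were joined is not stated in the sources used here. Of the per-sample columns 0 were left unused.

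The test had been planned for counts if the table held whole counts, and limma for scaled values. With R 4.3.3, limma 3.58.1 (trend on the mean) was run on log2(scaled count + 8), without covariates, over peaks that passed the edgeR 4.0.16 filter filterByExpr (minimum 10, total 15, 3 libraries), which left 73121 of 129347. edgeR on recovered whole reads (at least 99.91% of values whole within rounding) was an alternative. The fit was tested on simulated data. TSSs came from GENCODE release 44 lifted to GRCh37, the principal TSS being MANE Select, else Ensembl canonical. Similar mean count means between the lower and upper quartile of the members. Replicate numbers were not used to pair the samples in the main fit. Members and lists were chosen with earlier results of these data known, and 1 gene of the planned comparison list is not reported here. Named with values in every library were, per role, up to 4 called members with the largest change and the 1 with the smallest, members with peaks of opposite sign, and the largest changes among other replication genes. MCM6, the internal UHRF1 peak and the MCM ratios were chosen after their values were seen. Summaries used Python 3.11.15 with numpy 2.4.6, pandas 2.3.3, scipy 1.17.1 and matplotlib 3.10.9.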

Additional observations from a re-analysis of the deposited data

How the results depend on the processing

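The alternatives were 4 scalings, a pseudocount of 1, no filter, at least 10 in every library, edgeR on recovered reads, the replicate block, leaving out single replicates, and TSSs of protein-coding transcripts only. Under TMM scaling 1 member was lower and RPA2 changed by 0.00. With an equal total in peaks 2 members were lower with a member median of 0.47, 5 peaks of other replication genes were lower, and 1 internal peak was higher and 11 lower. The changes of POLE, RPA2, RPA3 and RRM1 turned to -0.14, -0.27, -0.11 and -0.04. With an equal median of promoter peaks 27 members were higher and 2 lower with a median of 0.39, 7 other peaks were lower, and 1 internal peak was higher and 11 lower. E2F2, GINS3, POLE, RPA2, RPA3 and RRM1 turned to -0.05, -0.01, -0.23, -0.35, -0.19 and -0.12. With the trended loess fit 24 members were higher and 5 lower with a median of 0.33, 14 other peaks were higher and 9 lower, and 7 internal peaks were higher. CCNE1, CCNE2, E2F7, MCM4, POLE, RPA2, RPA3 and RRM1 turned to -0.13, -0.30, -0.04, -0.22, -0.31, -0.01, -0.74 and -0.13. Of these CCNE2 and RPA3 passed the threshold as lower. Why the scalings differ was not tested. With at least 10 in every library 3 internal peaks were lower. Searched over whole main peaks, 34 members held an E2F match. These peaks had a median width of 1313 bp, wider than the windows of 300 bases. No share of other promoter peaks stands beside this count, so it does not set the members apart. Leaving out 1 replicate gave 39 to 49 members higher and 0 lower with medians of 0.73 to 0.86, a difference from similar promoters of 0.24 to 0.32, 2 to 5 internal peaks higher, and 0 to 1 other peaks lower. ORC5 lost its call without G1 replicate 3 and without M-phase replicate 1. Internal peaks higher numbered 2 without G1 replicate 3 or M-phase replicate 2. RPA2 then lay between -0.09 and 0.24 and MCM3 between -0.40 and 0.03. Of the 41 main peaks called, 34 were called without each replicate in turn, and the exceptions were CCNE1, RBL1, E2F7, GINS4, MCM2, MCM4 and MCM5. With the replicate block 47 members were higher and 0 lower with a median of 0.80. The correlations of deviations of same-numbered replicates were 0.0059, -0.0101 and 0.0284. These values do not tell whether same-numbered libraries were prepared together. edgeR on recovered reads called 45 higher and 0 lower. Depth limits the weakest peaks, and POLE2 could not be tested.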
